A study of Mus musculus with 8 samples.

Results

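The TRAV7 family, known in older nomenclature as Valpha1, is a group of closely related variable segments of the mouse T cell receptor alpha locus. Its members were taken by name, as every productive TRA contig whose V segment was called TRAV7, TRAV7D or TRAV7N. They were 618 of 5997 TRA contigs, in 603 of 5488 cells and 462 of 3721 clones that had a TRA chain. A clone is a group of cells that the deposited tables place in the same clonotype within a library. The family held 12.8% of clones as a mean over 4 libraries, which ranked it 2 of 19 TRAV families, after TRAV6.

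Immune cells positive for CD45 had been sorted from brain parenchyma of the C57BL/6 strain, and 4 single-cell T cell receptor libraries were analysed. A pair of libraries came from 5xFAD mice, a transgenic Alzheimer's disease model whose transgenes are expressed in neurons under the Thy1 promoter. The other pair came from 5xFAD;Cxcr6-/- mice, which carry the same transgenes and lack Cxcr6, the receptor for the chemokine CXCL16. Both groups carried 5xFAD, so there was no library without the transgenes, and age, sex and the number of mice behind a library are not given in the sources used here. The p-values therefore measure the spread between these libraries only, which may be technical.

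The libraries held 2069 and 2522 cell barcodes for 5xFAD and 765 and 1330 for 5xFAD;Cxcr6-/-, with 13460 to 34772 receptor UMIs each. The 5xFAD libraries contained 123 and 147 clones with a family chain, and those of 5xFAD;Cxcr6-/- contained 70 and 122. The median family TRA contig had 4 UMIs in each 5xFAD library and 5 in each 5xFAD;Cxcr6-/- library, against 4 for other TRA contigs in all 4. Of 6658 distinct barcodes 28 were found in more than 1 library. 7 family cells had such a barcode, none had a family chain in both libraries, and 0 TRA and TRB nucleotide pairs were shared between libraries. Invariant natural killer T (iNKT)-like clones, whose alpha chain joins TRAV11 to TRAJ18, are part of the totals. For 5xFAD there were 212 and 163 of them, and for 5xFAD;Cxcr6-/- 25 and 22.

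An alpha chain is made when 1 of many TRAV segments is joined to 1 of many TRAJ segments, with bases trimmed and added at the joint. The CDR1 and CDR2 loops are encoded by the V segment, and the CDR3 loop spans the joint. A thymocyte can rearrange the same allele again, and later rounds join V segments farther upstream to TRAJ segments farther downstream. In the mouse, part of the TRAV cluster was duplicated, and the copies carry D (duplicated) or N (new) in their names. TRAJ segments are numbered downwards from the TRAV side, so a high TRAJ number lies close to TRAV.

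The 13 annotated members lie on the plus strand of chromosome 14 between 52654817 and 53717291 (GRCm38, which mm10 names), and 12 were seen. TRAV7-1 is the most upstream at 52654817 to 52655328, and TRAV7-6 the nearest to TRAJ at 53716716 to 53717291. The D copies start between 52683964 and 52835858, the N copies between 53091346 and 53324632, and the other original copies from 53390635. In each segment seen, CDR1 lies in exon 2. TRAV7N-5, the member that was not called, has the same V region as TRAV7D-5, so clones called TRAV7D-5 could carry either. Across the 264 bases from the start of the V region to the CDR3, all 618 contigs were identical to a germline segment.

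The members form 11 distinct V regions that differ by 1 to 47 of those 264 bases. Their CDR1 bases are shown because they are where the members differ in a loop of the receptor, and capitals mark bases that differ from TRAV7-1.
TRAV7-1: gatcgtaattctcagtat
TRAV7-2 and TRAV7D-2: gatcgtaatGTtGaCtaC
TRAV7-3 and TRAV7D-3: gaCAgtGCttctcagtat
TRAV7-4 and TRAV7D-4: gatcgtaattTtcagtaC
TRAV7N-4: gatcgtaattTtcagtat
TRAV7-5: gatGgtaCttctAaCAaC
TRAV7D-5: gatcgtTCttctGaCAaC
TRAV7-6: gaCAgtGCttctcagtCC
TRAV7N-6: AaCAgtGCttctcagtCC

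Of the 12 members seen, 6 have a CDR1 of their own and the others form 3 pairs of an original and a D copy with the same CDR1. The 9 CDR1 forms encode 8 residue sequences, since TRAV7N-4 keeps the residues of TRAV7-4 and TRAV7D-4. CDR2 varies less, with 6 nucleotide forms and 5 residue forms. TRAV7-2 and TRAV7D-2 have identical V regions, so the 1 clone called TRAV7-2 and the 111 called TRAV7D-2 cannot be told apart by the V region. TRAV7-4 and TRAV7D-4 differ by 1 base, TRAV7-3 and TRAV7D-3 by 2, and TRAV7-5 and TRAV7D-5 by 13. Calls within the closest of these pairs therefore rest on 1 or 2 bases. Every contig called TRAV7-3, TRAV7D-3, TRAV7-4 or TRAV7D-4 was identical to that segment alone. TRAV7D-5 cannot be told from TRAV7N-5 by the V region. TRAV7-6 differs from its nearest member, TRAV7N-6, by 9 bases and TRAV7-1 from TRAV7D-4 by 14.

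The next sequences are the TRA CDR3 of the 2 largest family clones of each library, with ties, shown as examples of the receptors that the family's larger clones carried. Capitals mark junction bases that match neither the V nor the J germline. A clone can hold cells for which the family chain is not listed, so the cells with the printed family chain are given out of the clone's cells.
TRAV7D-3 with TRAJ35, 14 of 15 cells in 5xFAD library 2: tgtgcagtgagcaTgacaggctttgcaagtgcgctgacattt
TRAV7-5 with TRAJ37, 11 of 12 cells in 5xFAD library 1: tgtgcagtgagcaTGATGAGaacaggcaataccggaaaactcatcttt
TRAV7-5 with TRAJ40, 11 of 11 cells in 5xFAD library 2: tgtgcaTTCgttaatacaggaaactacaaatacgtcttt
TRAV7-6 with TRAJ16, 4 of 6 cells in 5xFAD library 1: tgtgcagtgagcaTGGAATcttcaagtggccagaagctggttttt
TRAV7-4 with TRAJ48, 6 of 6 cells in 5xFAD;Cxcr6-/- library 1: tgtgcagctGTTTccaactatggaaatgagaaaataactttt
TRAV7D-4 with TRAJ9, 4 of 5 cells in 5xFAD;Cxcr6-/- library 1: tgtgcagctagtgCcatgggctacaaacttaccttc
TRAV7D-4 with TRAJ27, 2 of 5 cells in 5xFAD;Cxcr6-/- library 2: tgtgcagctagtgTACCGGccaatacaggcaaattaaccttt
TRAV7-1 with TRAJ22, 4 of 5 cells in 5xFAD;Cxcr6-/- library 2: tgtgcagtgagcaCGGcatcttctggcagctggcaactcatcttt
TRAV7D-2 with TRAJ34, 5 of 5 cells in 5xFAD;Cxcr6-/- library 2: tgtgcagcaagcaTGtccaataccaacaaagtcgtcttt

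These 9 chains used 7 V segments and 9 TRAJ segments, had 1 to 7 junction bases and were 36 to 48 bases long. No chain recurred among them. The last 3 tied at 5 cells, and all are given. In 5xFAD library 2, clones of 9, 8 and 7 cells are not printed.

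The first question was whether the family took the same part of the brain repertoire with and without Cxcr6. In 5xFAD the family held 11.6% and 11.5% of clones, and in 5xFAD;Cxcr6-/- it held 14.4% and 13.5%. Both 5xFAD;Cxcr6-/- libraries lay above both 5xFAD libraries, and the means were 11.6% ± 0.0384 and 13.99% ± 0.631 (SD, n = 2 each). The difference of 2.42 percentage points had p = 0.3333 in an exact two-sided permutation test, the smallest p that 2 against 2 can give. Leaving iNKT-like clones out of the total gave 14.5% and 13.2% in 5xFAD and 15.2% and 13.9% in 5xFAD;Cxcr6-/-. The groups then overlapped, with a difference of 0.709 percentage points (exact permutation p = 0.667).

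Counted as cells, the family held 9.60% and 10.4% in 5xFAD and 13.1% and 12.9% in 5xFAD;Cxcr6-/-. Without iNKT-like cells these values were 11.2%, 11.4%, 13.6% and 13.1%, and the 5xFAD;Cxcr6-/- libraries remained above both 5xFAD libraries (difference 2.09 points, exact permutation p = 0.3333). Shares of cells depend on single large clones of other families. The largest such clone had 254 and 76 cells in 5xFAD and 51 and 31 in 5xFAD;Cxcr6-/-. Whether the groups stay apart without these clones was not tested. The exact 95% (Clopper-Pearson) intervals of single libraries, which cover counting error only, overlapped between the genotypes in both cell counts. The plot of family shares by library shows all 16 values. Of 16 exact genotype comparisons made here, the smallest Benjamini-Hochberg adjusted p was 0.762.

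**Figure D1:**
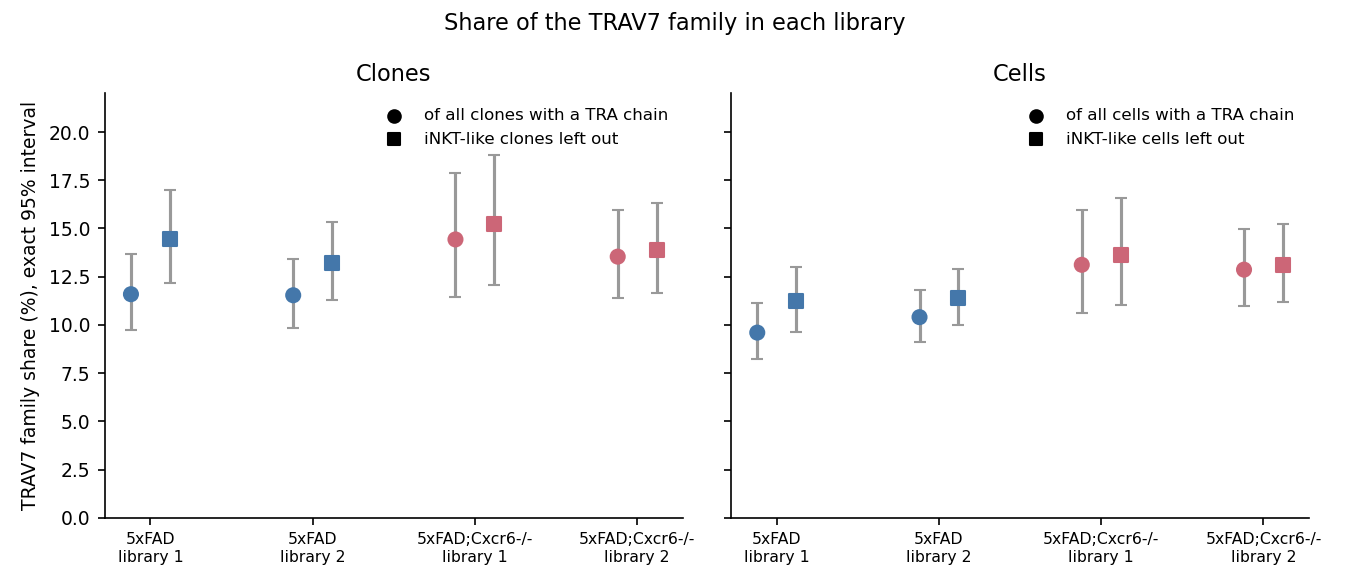
Share (%) of the TRAV7 family among clones (left) and cells (right) of each library, of all clones or cells with a TRA chain (circles) and with iNKT-like ones left out (squares). Bars are exact 95% intervals; the gap between the 5xFAD libraries (blue) and the 5xFAD;Cxcr6-/- libraries (red) is 2.42 points for all clones and 0.709 points without iNKT-like clones.

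The same question was put to a model of all families. edgeR's quasi-likelihood test on clones per TRAV family called 1 of 19 families (5.26%) at an adjusted p under 0.05, and that was TRAV11, the family of iNKT-like chains. For TRAV7 the log2 fold change of 5xFAD;Cxcr6-/- over 5xFAD was 0.27 with SE 0.15, and the edgeR adjusted p was 0.563. The median over all 19 families was 0.18. Without iNKT-like clones the log2 fold change of TRAV7 was 0.06 and the median of all families -0.0061. The adjusted p for TRAV7 ranged from 0.0777 to 0.978 over the alternatives tried.

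The 3 families of at least 40 clones whose shares ran most like those of TRAV7 over the 4 libraries were TRAV14, TRAV4 and TRAV5. Their distances were 0.110, 0.134 and 0.205, as the Euclidean distance between centred log2 shares among 14 families. TRAV14 held 9.52% and 8.87% of clones in 5xFAD and 10.7% and 10.2% in 5xFAD;Cxcr6-/-. All shares are parts of the same totals, which also hold the iNKT-like clones.

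Members of the family were used very unequally. TRAV7D-2 was the most used, with 20.3% and 23.1% of family clones in 5xFAD and 18.6% and 31.97% in 5xFAD;Cxcr6-/- (mean 23.5% ± 5.95, SD, n = 4). TRAV7-5 followed with 18.7%, 15.6%, 24.3% and 13.9% in the same order of libraries (mean 18.1% ± 4.55, n = 4). Next was TRAV7-4 with 16.3%, 13.6%, 18.6% and 15.6% (mean 16% ± 2.05, n = 4). These 3 members overlapped in range, and all 4 values of each lay above every value of the members that follow.

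After TRAV7-4 came TRAV7-3 at 7.27% ± 2.30 of family clones, TRAV7D-5 at 6.38% ± 1.72, TRAV7D-3 at 5.65% ± 2.86, TRAV7-6 at 5.60% ± 1.39 and TRAV7D-4 at 5.58% ± 2.24. TRAV7N-6 held 4.83% ± 3.31, TRAV7-1 3.91% ± 1.20 and TRAV7N-4 2.78% ± 3.18 (SD over 4 libraries throughout). TRAV7-2 was called in 1 clone. Every neighbour in this order overlapped the next in range, apart from the step between TRAV7-4 and TRAV7-3.

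**Figure D2:**
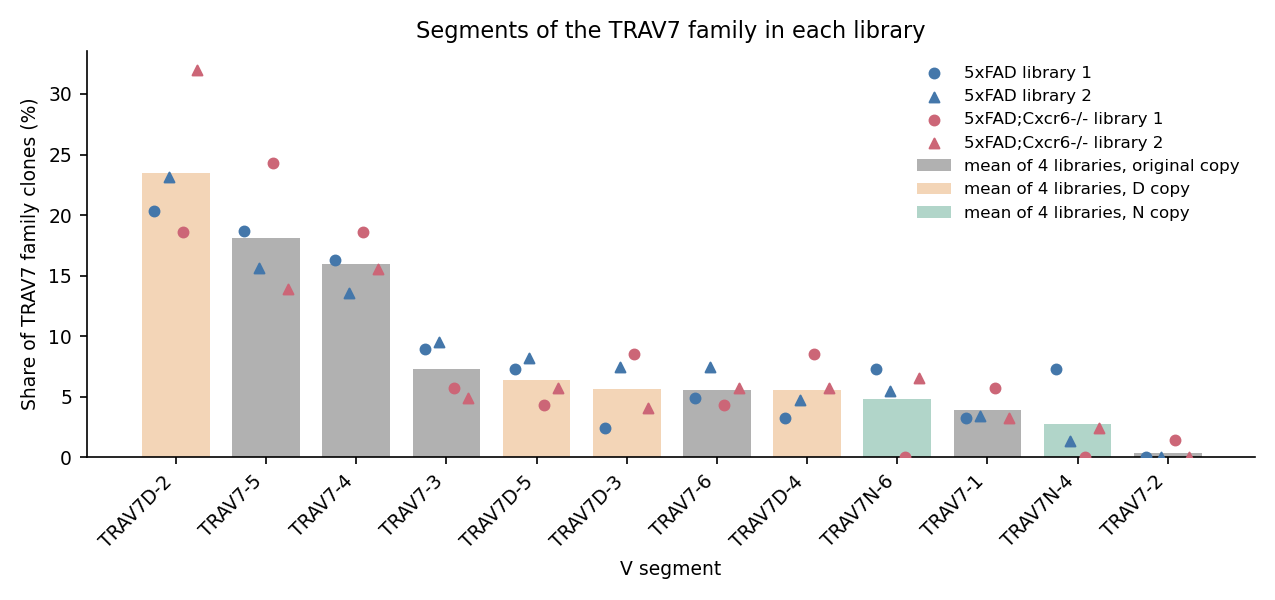
Share (%) of TRAV7 family clones that used each member, in order of the mean of 4 libraries (bars, coloured by original, D or N copy), with each library as a point. TRAV7D-2, TRAV7-5 and TRAV7-4 lie above the rest in all 4 libraries, and the members called as N copies are at 0 in 5xFAD;Cxcr6-/- library 1.

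No member differed between genotypes in the fit of all V and J segments. Of 152 segments tested 2 (1.32%) were called by edgeR at an adjusted p under 0.05, and both were iNKT-like segments, TRAV11 and TRAJ18. Among the family, 11 members had at least 10 clones and were tested, and 0 were called with edgeR and 0 with DESeq2. At an unadjusted p under 0.05 edgeR gave 1 of these 11 members and DESeq2 0, against 11 and 2 of all 152 segments. Log2 fold changes of 5xFAD;Cxcr6-/- over 5xFAD ran from -1.08 to 0.98, with 6 of 11 above 0 and a median of 0.36, against a median of 0.13 over all segments tested.

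The member with the smallest p was TRAV7D-2, with 25 and 34 clones in 5xFAD and 13 and 39 in 5xFAD;Cxcr6-/-. Its log2 fold change was 0.59 with SE 0.27 (edgeR adjusted p = 0.639). In 5xFAD;Cxcr6-/- library 2 it held 31.97% of family clones, the highest value of any member in any library, and the log2 fold change fell to 0.17 when that library was left out.

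Grouped by copy, original segments held 52.0% and 49.7% of family clones in 5xFAD and 60.0% and 43.4% in 5xFAD;Cxcr6-/-. D copies held 33.3%, 43.5%, 40% and 47.5% in the same order. N copies held 14.6% and 6.80% in 5xFAD, and 0 of 70 clones and 9.02% in 5xFAD;Cxcr6-/-. The 0 of 70 allows a share of up to 4.29%, if the calls of D and N copies hold. They cannot be checked for TRAV7D-5, whose V region equals that of TRAV7N-5. It was called in 9 and 12 clones in 5xFAD and 3 and 7 in 5xFAD;Cxcr6-/-, all counted as D copies. Genotypes overlapped for all 3 classes, with exact permutation p-values of 1 for original, 0.667 for D and 0.667 for N copies. The boundary between original and D rests mostly on TRAV7D-2, whose V region equals that of TRAV7-2. Counted as an original copy, it brought the original share to 72.4%, 72.8%, 78.6% and 75.4%.

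The second question was which TRAJ segments the family joined. Family chains had a mean TRAJ number of 25.8 and 28.3 in 5xFAD and 28.8 and 28.1 in 5xFAD;Cxcr6-/-. Other chains, with iNKT-like ones left out, had means of 29.7, 29.99, 30.6 and 31.5. The family lay lower, that is farther from TRAV, in 4 of 4 libraries, by 2.68 ± 1.15 (SD, n = 4). The exact two-sided sign-flip permutation p was 0.13, the smallest 4 libraries can give, and 0.146 after adjustment over 14 within-library comparisons of this kind. The genotypes did not separate for the family's TRAJ number (exact permutation p = 0.667).

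TRAJ segments 58 to 40, those nearest TRAV, were used by 17.9% and 22.4% of family clones in 5xFAD and 24.3% and 19.7% in 5xFAD;Cxcr6-/-. Among other clones the same segments had 27.6%, 26.5%, 28.5% and 31.2%. The family was lower in every library, and the middle segments 39 to 21 were higher in every library (49.6%, 54.4%, 57.1% and 54.9% against 46.9%, 49.7%, 47.9% and 47.6%). The downstream segments 20 to 2 went both ways.

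The starts of the family's V segments span 1062 kb, and their TRAJ use differed along it. TRAV7-6, which is nearest to TRAJ, had a mean TRAJ number of 39.9 ± 10.5 over 27 clones, and 66.7% of its clones used TRAJ 58 to 40. TRAV7-5, the next member upstream, had 32.6 ± 13.3 over 80 clones. All others lay between 21.4 and 29.7 (TRAV7N-4 over 14 clones and TRAV7D-4 over 24). The most upstream member, TRAV7-1, had 24.5 ± 12.2 over 17 clones.

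By library, TRAV7-6 had mean TRAJ numbers of 31.5 and 45.8 in 5xFAD and 39 and 38 in 5xFAD;Cxcr6-/-, over 6, 11, 3 and 7 clones. The other members had 25.5, 26.9, 28.4 and 27.5. TRAV7-6 was higher in each of the 4 libraries, and without it the difference between the family and other chains was -3.37. This member was singled out after its values were seen. Spearman's rho between position and mean TRAJ number was 0.309 over the 11 members with at least 10 clones. Within libraries it was 0.609 and 0.473 in 5xFAD over 11 members, and in 5xFAD;Cxcr6-/- 0.533 over 9 and 0.264 over 11. All 4 were above 0, and the N copies in mid-locus had the lowest pooled means, 21.4 and 21.8. The points share libraries and differ widely in clones, so rho is given as a description.

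**Figure D3:**
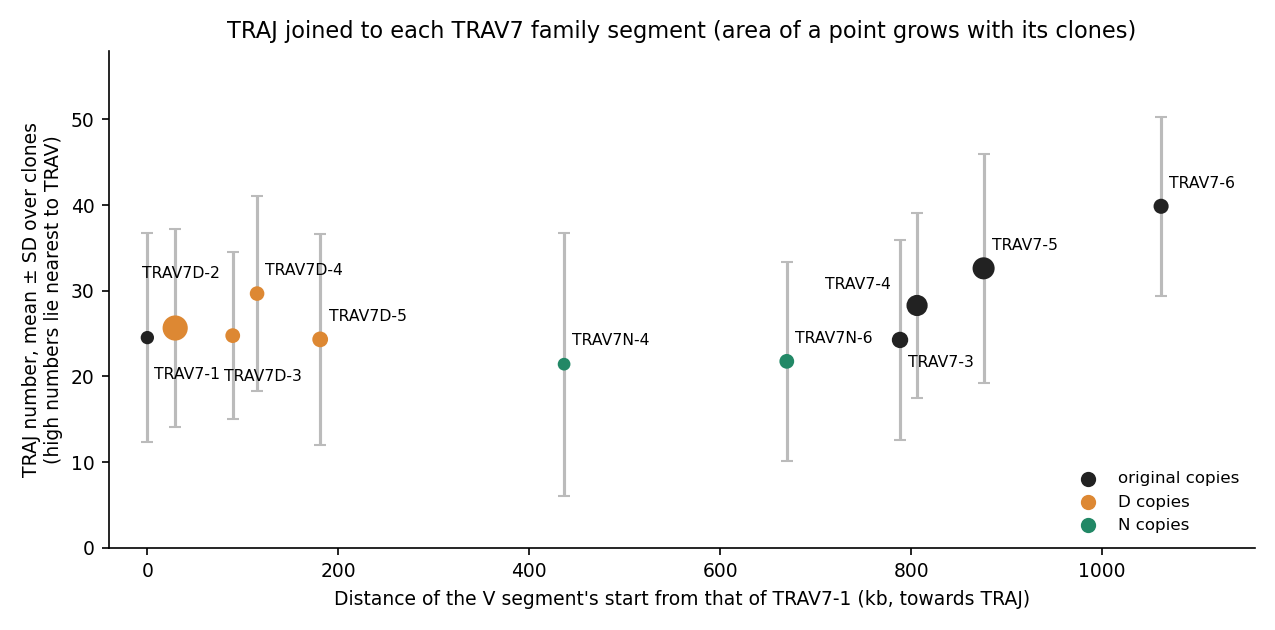
Mean TRAJ number (± SD over clones) of each TRAV7 family member with at least 10 clones, against the distance of its start from that of TRAV7-1 in kb. TRAV7-6 at the right has the highest mean (39.9), followed by TRAV7-5 (32.6), and the other members lie between 21.4 and 29.7.

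Original and D copies differed in the same direction in each library. Original copies had mean TRAJ numbers of 29.5, 31.2, 30.8 and 29.2, and D copies 23.7, 25.8, 25.8 and 27.4, in the order 5xFAD libraries 1 and 2, 5xFAD;Cxcr6-/- libraries 1 and 2. The difference was 4.53 ± 1.84 (SD, n = 4; exact sign-flip permutation p = 0.13), and it was 3.33 without TRAV7-6. With TRAV7D-2 counted as an original copy it was 2.85. This comparison was added after the data were seen.

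By single TRAJ segments, the family used 42 of 43. The 5 with the highest mean share were TRAJ26 (5.89% ± 2.58 of family clones), TRAJ22 (5.68% ± 0.713), TRAJ21 (5.44% ± 3.18), TRAJ27 (5.07% ± 2.995) and TRAJ30 (4.85% ± 1.67; SD, n = 4). Among other clones these segments had 3.65%, 6.35%, 3.06%, 3.56% and 4.28%. All 5 lie in the middle of the array.

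The segment never found with the family was TRAJ57, close to the upstream end of the array. It was joined to 0 of 462 family clones, and to 2.06% and 2.17% of other clones in 5xFAD and 2.56% and 2.51% in 5xFAD;Cxcr6-/-. Taking 3 clones as an approximate limit for a count of 0, the 0 of 462 allows a share of up to 0.649%. That limit is 3.58-fold below the other clones' mean of 2.33%, whose own error is left out of the ratio. Of 77 TRAJ, TRBV and TRBJ segments tested with the library as a block, TRAJ57 was the 1 called (1.30%; edgeR adjusted p = 0.0279). The call rests on few expected clones: its adjusted p was 0.416 without 5xFAD replicate 1, 0.162 without 5xFAD replicate 2, 0.0939 without 5xFAD;Cxcr6-/- replicate 2 and 0.254 with DESeq2.

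TRAJ50, another upstream segment, was found in 1 family clone (0.205% ± 0.410) against 1.76% ± 0.193 of other clones, lower in 4 of 4 libraries (edgeR adjusted p = 0.331). In the other direction stood TRAJ38 (2.08% ± 1.60 against 0.769% ± 0.0596; higher in 3 of 4), TRAJ26 (higher in 3 of 4) and TRAJ40 (4.10% ± 0.630 against 2.29% ± 0.436; higher in 4 of 4). Each of those 3 had an edgeR adjusted p of 0.412. The interaction of partner use with genotype had 0 of 77 segments called with edgeR and 3 at an unadjusted p under 0.05.

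**Figure D4:**
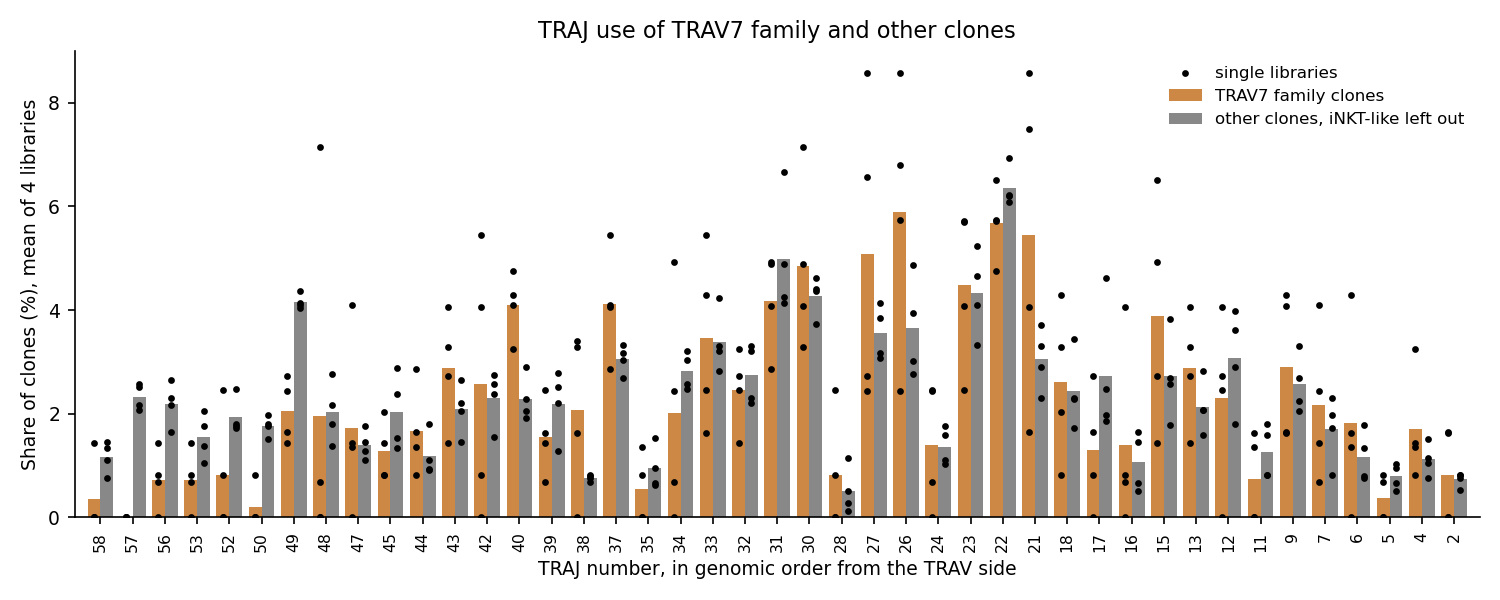
Share (%) of clones that used each TRAJ segment, in genomic order from the TRAV side, for TRAV7 family clones (orange) and other clones with iNKT-like ones left out (grey). Bars are means of 4 libraries and points are single libraries; the family is at 0 for TRAJ57 and has its highest mean at TRAJ26 (5.89%).

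The CDR3 of family alpha chains was slightly shorter than that of other chains. Its mean length was 40.5 and 40.2 nucleotides in 5xFAD and 39.8 and 40.4 in 5xFAD;Cxcr6-/-, against 41.0, 41.1, 41.2 and 41.0 for other chains. It was shorter in 4 of 4 libraries by 0.839 ± 0.439 nucleotides (SD, n = 4; exact sign-flip permutation p = 0.13). The commonest lengths were 13 and 14 residues (28.1% and 28.6% of family clones), and 12 residues had 18.4% against 13.3% of other clones.

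The shorter loop was spread over its parts. Family minus other chains, the difference was -0.396 in V bases kept, -0.215 in J bases kept and -0.240 in junction bases, each below 0 in 4 of 4 libraries. They had lost 2.66 bases from the annotated V end against 1.997 for other chains, with annotated V ends 0.270 bases longer (mean differences of 4 libraries; all p = 0.13, exact sign-flip permutation). On the J side, the annotated J part of the CDR3 was 0.427 bases shorter in the family. It had lost 0.211 fewer bases, both in 4 of 4 libraries. Junction bases averaged 2.62 and 2.84 in 5xFAD and 2.46 and 2.75 in 5xFAD;Cxcr6-/-, and 14.7% of family clones had none. Of 85 family clones that kept it whole and had at least 2 junction bases, 42 continued after that end with TG. Whether those bases are germline was not tested.

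The middle of the family's CDR3, without the first and last 3 residues, carried a mean net charge of 0.656 against 0.472 in other chains. It was more positive in 4 of 4 libraries, by 0.183 ± 0.0707 (exact sign-flip permutation p = 0.13). Kyte-Doolittle hydropathy averaged -1.45 against -1.51 and was higher in 3 of 4 libraries (exact sign-flip permutation p = 0.25).

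Beta chains were examined in clones with exactly 1 TRB, 98 and 121 family clones in 5xFAD and 64 and 114 in 5xFAD;Cxcr6-/-. Family chains were found with all 22 TRBV and all 12 TRBJ segments. The most frequent TRBV label was TRBV19, with 3.06% and 12.4% in 5xFAD and 15.6% and 7.02% in 5xFAD;Cxcr6-/-, a wide spread within each genotype (mean 9.53% ± 5.58, SD, n = 4). The label TRBV12-2+TRBV13-2, kept as the tables give it, followed at 8.05% ± 3.03, then TRBV3 at 7.995% ± 2.27, TRBV13-1 at 7.36% ± 3.02 and TRBV1 at 6.95% ± 2.68 (SD, n = 4). In other clones these 5 had 7.86%, 8.60%, 8.58%, 5.87% and 4.84%. TRBV12-2 and TRBV13-2 were also called alone, in 6.42% ± 1.12 and 2.43% ± 0.631 of family clones. The order therefore depends on how the joint label is counted.

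No TRBV or TRBJ was called. The smallest p of this group was that of TRBV12-1, found with 1.02% and 2.48% of family clones in 5xFAD and 3.13% and 3.51% in 5xFAD;Cxcr6-/-, and with 6.94%, 6.44%, 4.99% and 4.15% of other clones. It was lower with the family in 4 of 4 libraries, at a log2 fold change of -1.16 with SE 0.39 (edgeR adjusted p = 0.190). The leading TRBJ segments were TRBJ2-7 (23.6% ± 3.47, against 21.9% in other clones), TRBJ2-5 (11.96% ± 5.03 against 10.8%) and TRBJ2-1 (10.2% ± 2.61 against 11.03%).

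Clone size was compared next. Of family clones, 13.0% and 18.4% had 2 or more cells in 5xFAD, and 11.4% and 13.9% in 5xFAD;Cxcr6-/- (means 15.7% ± 3.79 and 12.7% ± 1.77, n = 2 each, exact permutation p = 0.667). The libraries differ in cell number, and with each thinned to 765 cells the family values were 10.4%, 13.1%, 11.4% and 11.5%. At that depth the means were 11.8% and 11.4%. Other clones had 15.7%, 21.1%, 13.8% and 10.96% before thinning. The family was lower than the others in 3 of 4 libraries and higher in 5xFAD;Cxcr6-/- library 2, with a mean difference of -1.22 ± 2.80 points (exact sign-flip permutation p = 0.625).

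In the other direction, the family made up 11.3% and 11.2% of expanded clones in 5xFAD and 12.9% and 16.8% in 5xFAD;Cxcr6-/-, and 11.6%, 11.6%, 14.7% and 13.1% of single-cell clones. In a model of all families with the library as a block, edgeR called 1 of 19 families (5.26%), TRAV11, between expanded and single clones. TRAV7 had a log2 fold change of 0.03 with SE 0.19 (edgeR adjusted p = 0.917) against a median of 0.35 over all families, and its sign turned under 4 of the 9 alternatives. The interaction of expansion with genotype for TRAV7 was 0.21 with SE 0.34 (edgeR adjusted p = 0.917).

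The largest family clones had fewer cells than the largest clones without the family. They had 12 and 15 cells in 5xFAD and 6 and 5 in 5xFAD;Cxcr6-/-, where the largest other clones had 254, 76, 51 and 31. The other clones, with iNKT-like ones left out, numbered 727, 966, 390 and 757, against 123, 147, 70 and 122 of the family. A larger set has more chances of a large clone, so the largest sizes were not tested against each other. The 12-cell clone, 0.580% of its library's barcodes (exact 95% interval 0.300% to 1.01%), paired TRAV7-5 and TRAJ37 with TRBV3 and TRBJ1-3. The 15-cell clone, 0.595% (0.3333% to 0.979%), paired TRAV7D-3 and TRAJ35 with TRBV13-3 and TRBJ2-1. Their TRB CDR3 sequences complete the receptors whose alpha chains are printed above.
TRB of the 12-cell clone: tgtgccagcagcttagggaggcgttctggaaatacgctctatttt
TRB of the 15-cell clone: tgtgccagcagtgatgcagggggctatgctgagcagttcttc

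Within the family, expansion was compared between copies. Original copies were expanded in 17.2% and 21.9% of clones in 5xFAD and 16.7% and 17.0% in 5xFAD;Cxcr6-/-, and D copies in 7.32%, 15.6%, 3.57% and 12.1%. The counts are small, with 43 of 232 original and 21 of 191 D clones expanded over all libraries. The lowest D value came from 28 clones. Original copies were higher in 4 of 4 libraries by 8.54 ± 3.68 points (SD, n = 4; exact sign-flip permutation p = 0.13, adjusted 0.146). With TRAV7D-2 counted as an original copy the difference was 7.1 points. This comparison was also added after the data were seen, and it was not repeated with clones defined by the TRB and a shared TRA. N copies had 4 expanded clones of 39.

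**Figure D5:**
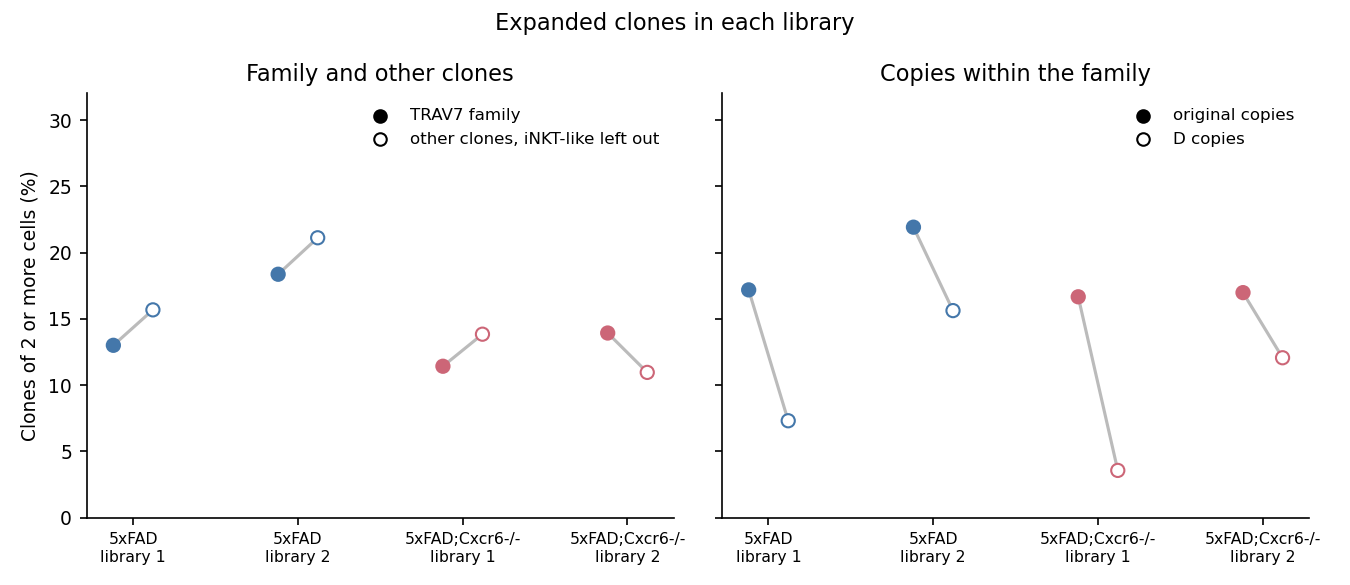
Share (%) of clones with 2 or more cells in each library, for TRAV7 family (filled) and other clones (open) on the left, and for original (filled) and D copies (open) of the family on the right. The family lies below the others in 3 of 4 libraries, and original copies lie above D copies in 4 of 4.

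Few family chains were found in more than 1 library. Of 453 distinct TRA CDR3 nucleotide sequences 2 were found in 2 libraries (0.442%), each in 1 cell per library. For other chains it was 68 of 3047 (2.23%), so most chains of either kind were seen in 1 library. The lists differ in size, and a longer list has more chances of a match, so the shares were not tested against each other. The 2 family sequences are printed because both cross genotype, with junction bases in capitals.
TRAV7D-2 with TRAJ6, in 5xFAD library 2 and 5xFAD;Cxcr6-/- library 1: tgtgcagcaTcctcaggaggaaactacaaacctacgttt
TRAV7D-5 and TRAV7-5 with TRAJ18, in the same libraries: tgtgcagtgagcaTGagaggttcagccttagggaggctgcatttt

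Both have short junctions of 1 and 2 bases, and the second was joined to different V segments in the 2 libraries. As residues, 8 of 444 distinct CDR3 sequences were shared between libraries (1.80%), and 0 were found in 3 or more. Other chains had 160 of 2895 (5.53%).

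A second productive alpha chain was frequent in cells with a family chain. It was present in 21.4% and 26.2% of family cells in 5xFAD and 14.1% and 18.6% in 5xFAD;Cxcr6-/-. A cell with 2 chains has more chances to hold a family member, so the share per chain is the fairer measure. These shares leave iNKT-like chains out of the totals. In cells with 2 TRA chains the family was 13.0%, 17.1%, 10.1% and 15.3% of chains, and in cells with 1 it was 9.73%, 9.29%, 13.2% and 11.7%. The family share was higher in cells with 2 chains in 3 of 4 libraries and lower in 5xFAD;Cxcr6-/- library 1. Cells with 2 chains can also be doublets, whose part in these values was not tested.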

How the data were processed

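Per the labels' protocols, the 10x Genomics Immune Profiling v2 chemistry was used. Cell Ranger 6.0 and mm10 are named per the submitters' processing notes, and the receptor reference is not given in the sources used here. The deposited tables give counts of reads and UMIs per assembled contig, per the file headers, without normalization, and 0 contigs lacked the marks productive, high confidence and cell. The 4 samples of gene expression were left out.

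Clones followed the deposited clonotype within a library. A cell that misses a chain can form a clonotype of its own, so some receptors count more than once. Each clone had 1 representative TRA, the family chain where there was one. Germline segments were those of GENCODE M21 transcripts (GRCm38). CDR3 bases were matched to the V end first and then to the J start, and chance matches understate the junction. Any germline V bases past the annotated V end would be counted as junction, and their number was not tested. Library means were compared with exact permutation tests, and counts of clones with edgeR 4.0.16 quasi-likelihood tests with the clone total as offset, at least 10 clones per segment and Benjamini-Hochberg adjustment over all segments tested. The SE is the log2 fold change divided by the square root of F. DESeq2 1.42.0, TMM scaling, other clone definitions and left-out libraries were alternatives. The fits and the junction matching were tested on simulated data. R 4.3.3 and Python 3.11.15 were used.

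The named segments were all family members, the 5 TRAJ, 5 TRBV and 3 TRBJ most used with the family, partners called or with the 3 smallest p in each direction, the 2 largest clones per library, shared CDR3 sequences and the 3 families most alike. Members and lists were chosen with earlier results of these data known.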

Additional observations from a re-analysis of the deposited data

How the results depend on the processing

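The higher family share of clones in 5xFAD;Cxcr6-/- kept its direction under every alternative run, from 0.709 to 3.57 percentage points. The lower TRAJ number and the shorter CDR3 did too (-3.37 to -1.33, and -1.27 to -0.647 nucleotides). Leaving out 1 library could not reverse any of these directions, since no single library ran against them. Those runs therefore test the size of the difference only, and the direction was tested by the other alternatives. Of 170 values recomputed for 21 results, 153 were unchanged. For differences of library means this meant the same direction only, and for fits of a single segment or family also the same side of the threshold. For counts of called segments it meant the same or a similar count. The 153 include runs whose outcome was fixed beforehand. Among these are the runs with 1 library left out for the directions above and for original against D copies. Fits of families and of partner segments without the minimum of clones are also among them. That minimum removed nothing there, so these fits repeated the main fit. The values that changed follow, and their causes were not tested. The genotype difference in original copies, 0.875 points, was -1.43 points by cells and ran from -7.40 to 9.15 with 1 library left out. The junction difference was 0.0144 bases with iNKT-like chains kept among the others. The log2 fold change of TRAV7 in expanded against single clones was -0.38 with TMM, which moved the median of all families from 0.35 to -0.04 and raised the called families from 1 to 3. It was -0.11 without iNKT-like clones and -0.0092 at 3 or more cells, and ran from -0.073 to 0.084 with 1 library left out. Partner segments called were 1 in the test reported, 0 with DESeq2 (2 at an unadjusted p under 0.05), 2 with iNKT-like clones kept, and 0 to 1 with 1 library left out. With the replicate number as a block, TRAV7 had a log2 fold change of 0.26 (edgeR adjusted p = 0.524) and 0 family segments were called. Deviations of libraries of the same number had r = -0.0498 over 152 segments. With 2 pairs and many segments of few clones, this cannot decide whether such libraries belong together. The numbers were not taken as pairs. The TRAV11 and TRAJ18 calls between genotypes were lost without either 5xFAD;Cxcr6-/- library (0 called). Thinning, counting TRAV7D-2 as TRAV7-2, leaving out TRAV7-6 and the other clone definition for segments were chosen after seeing the data. With 2 libraries per genotype and 70 to 147 family clones each, differences between members of few clones were not detectable at this depth.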
